A study of Mus musculus with 48 samples.

Results

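Aminoacyl-tRNA synthetases are the enzymes that attach each amino acid to its transfer RNA (tRNA) before the ribosome uses it. Members were taken from a list of 35 mouse genes by gene symbol, cytosolic genes also under the symbol with 1 appended, and each was represented by whichever of its probe sets had the highest mean. Of the 35, 34 were measured among 18194 genes of the array, comprising 19 of 20 cytosolic and 15 of 15 mitochondrial synthetases. Liver was taken every hour from CT18 to CT65, where CT (circadian time) 0 is subjective dawn and CT12 subjective dusk, from 6-week-old male C57BL/6J mice held in a light-dark cycle and then kept in constant darkness. Livers of 3 to 5 mice were combined into 1 pool per hour, and each of the 48 pools was hybridised to its own Affymetrix mouse array. The hours from CT18 to CT41 form the first cycle and CT42 to CT65 the second.

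Cells carry separate sets of these enzymes for the cytosol and for the mitochondrion, and both sets are encoded in the nucleus. Gars and Kars serve both compartments and were counted as cytosolic, while Farsa and Farsb encode the alpha and beta subunits of the same cytosolic enzyme. In mammals several cytosolic synthetases join a large multisynthetase complex on small scaffold proteins. Genes of many cytosolic synthetases are known targets of ATF4, a transcription factor whose synthesis rises when amino acids are short, and the liver, which makes most plasma proteins, depends on steady tRNA charging.

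No hour was sampled in replicate, so every error and p-value reflects the spread among the 48 pools. In whole liver, fewer cells of a type and less RNA per cell cannot be told apart. Array medians lay between 95.2 and 110.9, and the median correlation of an array with the others was lowest at CT61, 0.984. Summed markers of hepatocytes stayed within 2783700 and 3084800. The summed intensity of 4 pancreatic acinar markers was 204860 at CT25 and 50351 at CT46 and at most 252.9 in every other pool. No synthetase had a mean under 100, the level near background, although Pars2, Vars, Ears2, Wars2 and Wars were dim, with means from 127 to 471.

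Transcripts were called rhythmic when Fisher's G-test and a cosine fit modelled on COSOPT both gave q under 0.05, and were placed in the 24, 12 or 8 h class by the fitted period length. In the 24 h class, 8 of 34 synthetases were called, 5 of 19 cytosolic (Cars, Farsb, Lars, Sars and Tars) and 3 of 15 mitochondrial (Hars2, Lars2 and Nars2), where 14.2% of all genes and 22.3% of the 11186 genes with a mean of at least 100 were called. The share among synthetases was therefore close to that of genes with a mean of at least 100. Those genes were not matched in brightness, with a median intensity of 1665.5 against 3042.8 in synthetases. Rars alone was called in the 12 h class, which held 1.13% of all genes and 1.82% of the brighter ones, and 0 of 34 were called in the 8 h class, which held 0.39% and 0.635%. Farsa and Cars2 were called at other period lengths of 16.6 and 30.0 h, as were 1.18% of all genes and 1.87% of the brighter ones.

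A harmonic model in limma, which held a straight-line trend beside waves of 24, 12 and 8 h, gave each amplitude and peak time a standard error (SE) and adjusted p-values over all probe sets by Benjamini-Hochberg. It is more permissive at 24 h, where it called 53.3% of all genes and 55.9% of those with a mean of at least 100. It found a 24 h component in 21 of 34 synthetases, 12 cytosolic and 9 mitochondrial. A 12 h component was found in 6 (Hars, Rars, Sars, Tars, Nars2 and Rars2), against 7.04% of all genes and 11.4% of the brighter ones, and an 8 h component in 0 of 34, against 1.91% of all genes and 3.08% of the brighter ones, although 13 of 34 had an unadjusted p under 0.05 at 8 h in limma. The median 24 h amplitude on the log2 scale was 0.16 in cytosolic and 0.13 in mitochondrial synthetases, beside 0.13 in all genes with a mean of at least 100. Most synthetases thus varied little over the day, with a median peak-to-trough ratio of 1.25 in the cytosol and 1.20 in mitochondria.

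**Figure D1:**
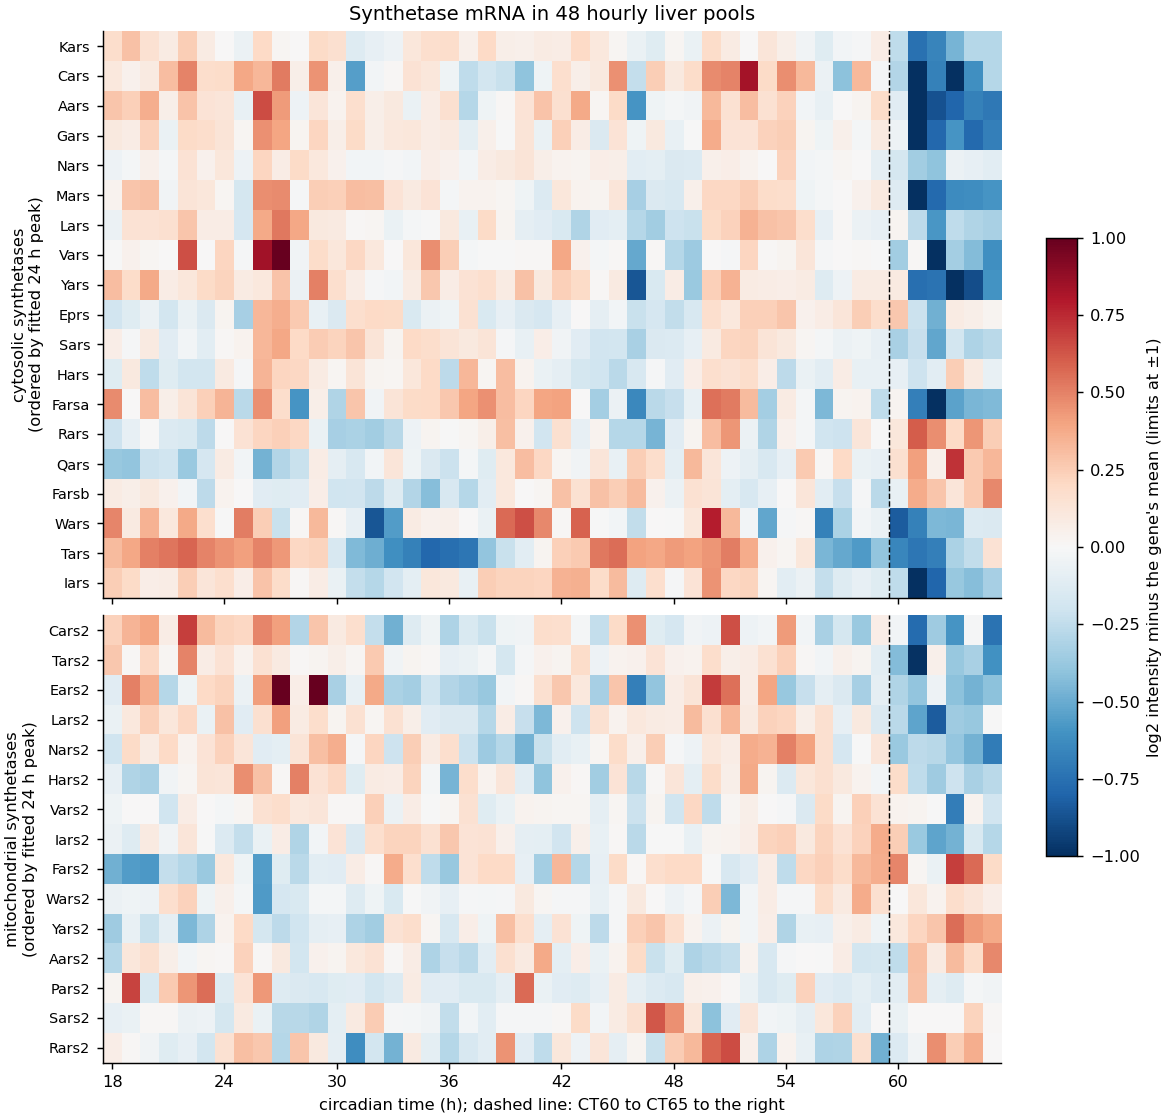
Log2 intensity minus the mean of the gene for 34 synthetases (rows, by compartment and ordered by fitted 24 h peak) in 48 hourly pools (columns, CT18 to CT65), with colour limits at ±1. Tars shows 2 broad high spans and 2 low ones, and many cytosolic rows turn blue to the right of the dashed line, from CT60 to CT65.

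The sequences upstream of start sites are shown for members on which the results below turn. Promoters of 300 bases from RefSeq (build GRCm38.p6), from 250 bases before the annotated start to 50 after it, were matched for 25 synthetases, 12 cytosolic and 13 mitochondrial. TGATGNAA, a sequence to which ATF4 can bind with a CEBP partner, was searched on both strands and was present in 5 of 12 cytosolic promoters (Aars, Gars, Iars, Tars and Yars), in 0 of 13 mitochondrial promoters and in 3.97% of 32851 promoters. CACGTG, the E-box of the circadian factors CLOCK and BMAL1 and also of MYC, was present in Aars, Ears2, Farsb, Iars and Tars and in 7.15% of promoters. In the 5 windows below, 80 bases each and written 5′ to 3′ on the strand of the gene, capitals mark a match to either motif, in the orientation in which it lies there. The Tars window is chr15:11399659-11399738 on the minus strand, the Gars window chr6:55037921-55038000 on the plus strand, the Aars window chr8:111033692-111033771 on the plus strand, the Iars window chr13:49682020-49682099 on the plus strand, and the Farsb window chr1:78488898-78488977 on the minus strand.
Tars: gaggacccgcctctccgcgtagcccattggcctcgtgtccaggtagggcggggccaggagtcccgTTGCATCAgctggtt
Gars: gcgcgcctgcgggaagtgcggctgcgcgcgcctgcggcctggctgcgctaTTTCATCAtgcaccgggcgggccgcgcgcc
Aars: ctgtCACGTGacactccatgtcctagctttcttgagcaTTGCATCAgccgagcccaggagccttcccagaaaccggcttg
Iars: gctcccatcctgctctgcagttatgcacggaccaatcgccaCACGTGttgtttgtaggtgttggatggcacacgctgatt
Farsb: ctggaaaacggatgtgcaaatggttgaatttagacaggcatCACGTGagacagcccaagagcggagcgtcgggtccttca

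Other matches lay past the start site, TGATGNAA in Iars, Yars and a second copy in Aars, and CACGTG in Tars and Ears2. TTATGNAA, a site of the CEBP factors, was found in Vars2 and in 3.38% of promoters. The ER stress element (0.119% of promoters) and the heat shock motif GAANNTTC (7.86%) were in 0 of 25. A match describes letters in these windows and not a bound site.

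Tars, which charges tRNA with threonine in the cytosol, had the largest 24 h amplitude of the 34. Its intensity was lowest at CT35, 13100, had a median of 24641 and was highest at CT22, 33853. Pools from late subjective night through the early subjective day were high and pools around subjective dusk were low in both cycles. The 24 h amplitude was 0.62 ± 0.03 (SE), a 2.38-fold difference between peak and trough, with a peak at CT23.2 ± 0.14 and an adjusted p of 3.07e-22. Fitted in each cycle alone, the amplitude was 0.63 ± 0.05 with a peak at CT22.9 and 0.65 ± 0.08 with a peak at CT23.6. Tars was 1 of 3 synthetases, with Iars and Sars, called in the first cycle alone, where 11.1% of all genes were called. It also had a 12 h component of 0.12 ± 0.02 (adjusted p = 0.00254), and its level in the second cycle was 0.02 ± 0.04 above that in the first (adjusted p = 0.597).

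Over the 48 pools, the genes outside the family whose detrended profiles were most like that of Tars were Pnp (Pearson r = 0.961), Tubb2a (0.959), Fpgs (0.949), Psen2 (0.947) and Clpx (0.947), each fitted with a peak between CT23.1 and CT23.9. Among the other synthetases the correlation with Tars ranged from 0.52 for Farsb to -0.27 for Iars2. No synthetase was as close to Tars as these 5 genes. Tars2, the mitochondrial threonine enzyme, had an r of 0.30 with Tars. Its 24 h amplitude was 0.13 ± 0.04 with a peak at CT2.23 (adjusted p = 0.0215), and this call was lost without CT60 to CT65. Another bright probe set of Tars2, which can hybridise to more than the gene named, was in the 24 h class. It gave an amplitude of 0.22 ± 0.05 with a peak at CT3.41 (adjusted p = 0.00121 in limma).

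Cars, the cysteine enzyme of the cytosol, ranged from 317.5 at CT63 over a median of 1675.2 to 2788.5 at CT52. The 4 lowest pools were those of CT61 to CT64, and the highest lay in the early subjective day. The 24 h amplitude was 0.40 ± 0.08, a ratio of 1.75, with a peak at CT2.29 ± 0.72 (adjusted p = 2.48e-04). Fitted in each cycle alone, with its own trend, the amplitude was 0.70 ± 0.20 in the second, against 0.29 ± 0.11 in the first. A test of the 24 h component between cycles, in 1 fit of all pools, did not pass (adjusted p = 0.135). The 24 h component was still called without CT60 to CT65 (adjusted p = 6.50e-04). Tars and Cars were the only members with a fitted ratio over 1.5 at either 24 or 12 h.

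Farsb, the beta subunit of the phenylalanine enzyme, had its lowest value at CT35, 12184, a median of 16360 and its highest at CT65, 22788. Its pools at CT42 to CT46 and from CT61 on were high, and it peaked at CT20.3 ± 0.53 with an amplitude of 0.20 ± 0.03 (adjusted p = 9.69e-07). Its probe set can hybridise to more than the gene named. A pair of further bright probe sets of Farsb gave amplitudes of 0.15 ± 0.04 and 0.10 ± 0.03 with peaks at CT19.5 and CT20.0, but were not called by both tests. Farsa, the alpha subunit, had no called 24 h component (0.06 ± 0.07, adjusted p = 0.712).

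Sars, the serine enzyme, ranged from 4191.2 at CT62 over a median of 6017.4 to 7848.5 at CT27. Its amplitude was 0.16 ± 0.02 with a peak in the subjective day, at CT6.71 ± 0.50 (adjusted p = 5.03e-08). A second bright probe set of Sars followed it closely (r = 0.90) and peaked at CT6.28. Lars, the leucine enzyme and a subunit of the multisynthetase complex, ranged from 2751.5 at CT62 over 4141.9 to 5955.2 at CT27. It had the same amplitude as Sars, 0.16 ± 0.03, with a peak at CT5.33 ± 0.79 (adjusted p = 2.75e-04).

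Of the mitochondrial enzymes, Nars2, for asparagine, ranged from 1596.4 at CT65 over a median of 2671.6 to 3675.0 at CT54. Its amplitude was 0.24 ± 0.03 with a peak at CT3.80 ± 0.54 (adjusted p = 5.86e-07). It was high in the first part of the subjective day and low around CT40 and from CT60 on. Lars2, for leucine, had its lowest value at CT62, 878.7, a median of 1641.2 and its highest at CT27, 2087.8, and peaked at CT2.57 ± 0.57 with an amplitude of 0.23 ± 0.03 (adjusted p = 4.85e-06). Hars2, for histidine, ranged from 978.0 at CT36 over 1378.0 to 1911.3 at CT28, with an amplitude of 0.18 ± 0.04 and a peak at CT4.92 ± 0.88 (adjusted p = 0.00120). These 3 mitochondrial synthetases peaked within hours of each other in the early subjective day, and each kept its limma call without CT60 to CT65. Further probe sets followed the used ones only loosely, with r of 0.39 for Hars2, 0.13 for Lars2 and -0.08 for Nars2.

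**Figure D2:**
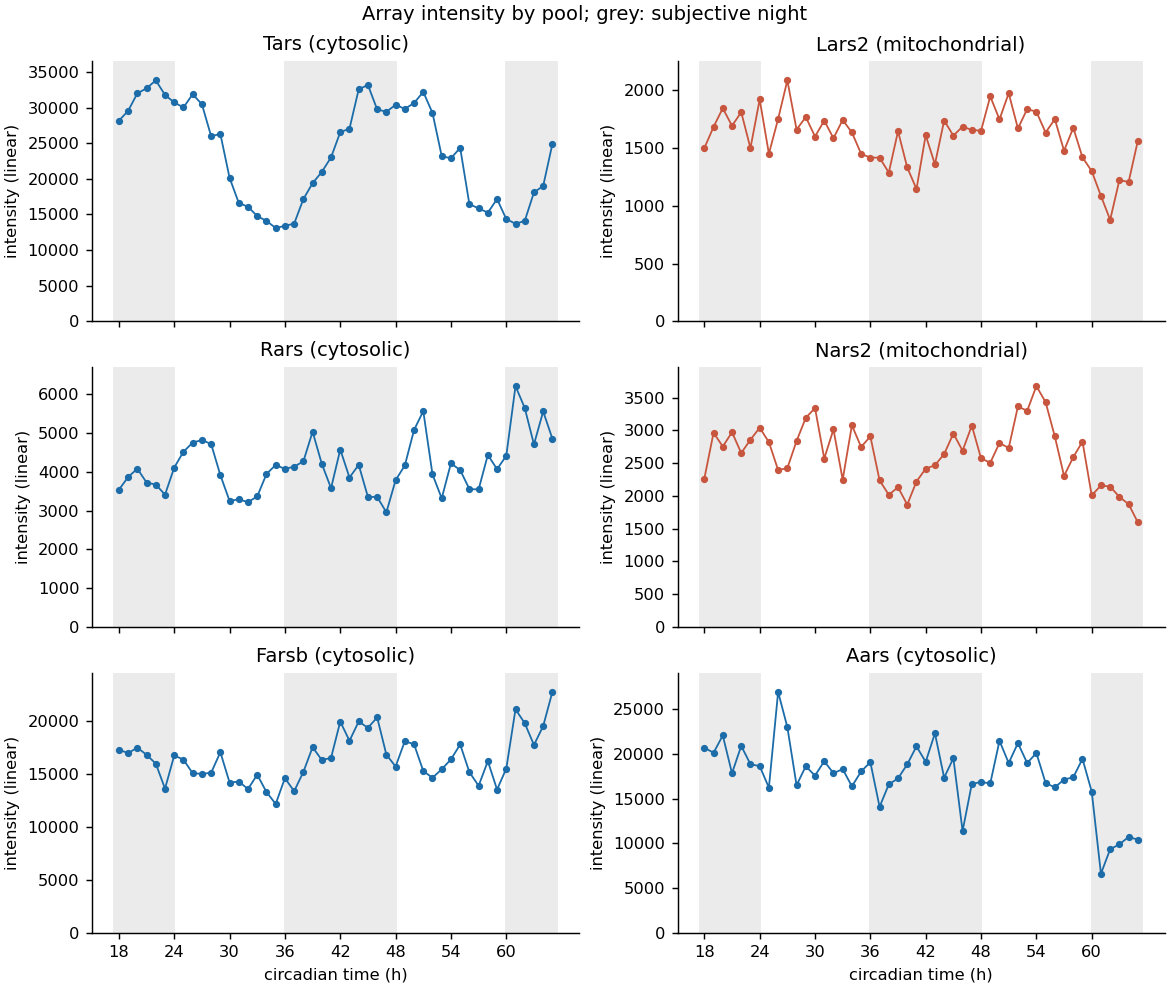
Array intensity on a linear axis from 0 (each panel with its own scale) against circadian time for Tars, Rars, Farsb, Aars (cytosolic, blue) and Lars2 and Nars2 (mitochondrial, red), with 1 point per pool and subjective night in grey. Tars falls to 13100 at CT35 and rises again in both cycles, Rars peaks more than once per cycle, and Aars drops to 6599.8 at CT61.

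Rars, the arginine enzyme of the complex, was the only member of the 12 h class. It ranged from 2954.1 at CT47 over a median of 4074.9 to 6206.3 at CT61. High pools recurred near CT27, CT39, CT51 and CT61 and low ones lay between them. The 12 h amplitude was 0.21 ± 0.03, a ratio of 1.33, with peaks 2.50 ± 0.31 h after subjective dawn and dusk (adjusted p = 1.99e-04), whereas the 24 h component was 0.06 ± 0.03 (adjusted p = 0.250). Hars, the histidine enzyme of the cytosol, peaked at a similar hour, 2.78 ± 0.37 h after dawn and dusk, with an amplitude of 0.13 ± 0.03 (adjusted p = 0.00267). A second bright probe set of Hars had an r of only 0.12 with it. Its 12 h component of 0.11, with a peak at 4.78 h, was not called in limma (adjusted p = 0.0949). Rars2, the mitochondrial arginine enzyme, peaked at 2.59 ± 0.47 h with an amplitude of 0.18 ± 0.05 (adjusted p = 0.0337), but lost the call without CT60 to CT65 (adjusted p = 0.219). The 12 h components of Sars, Tars and Nars2 peaked later, at 4.16, 5.69 and 8.55 h, and that of Nars2 was also lost without CT60 to CT65 (adjusted p = 0.104). Iars, in turn, gained a 12 h call without these pools (adjusted p = 0.00755, against 0.998 over all pools in limma).

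Farsa ranged from 366.8 at CT62 over 783.25 to 1111.5 at CT50, and Cars2, the mitochondrial cysteine enzyme, from 438.2 at CT61 over 730.65 to 1203.0 at CT22. Their period lengths of 16.6 and 30.0 h were outside the 24, 12 and 8 h classes, and 30.0 h was the upper end of the search. Both had low values at CT61 and CT62. The 24 h component of Cars2 in limma was 0.20 ± 0.06 with a peak at CT0.40 (adjusted p = 0.0137).

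The other 24 h components called by limma had amplitudes from 0.08 to 0.23. In the cytosol these were Aars, Eprs, Gars, Hars, Iars, Mars and Wars, and in mitochondria Cars2, Ears2, Iars2, Rars2, Tars2 and Yars2. Of all 21 called, 11 peaked between CT0 and CT6 (52.4%), 4 between CT6 and CT12, 1 between CT12 and CT18 and 5 between CT18 and CT24, where 27.4% of the called genes with a mean of at least 100 peaked between CT0 and CT6. By compartment, 5 of 12 cytosolic and 6 of 9 mitochondrial peaks lay in CT0 to CT6. Yars2, at CT16.9, was the 1 that peaked in the early subjective night, and Eprs, Sars, Hars and Iars2 were those that peaked between CT6 and CT12. Without CT60 to CT65 the calls of Aars, Gars, Ears2, Rars2, Tars2 and Yars2 were lost, which left 15 of 34, where 29.9% of all genes were then called.

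**Figure D3:**
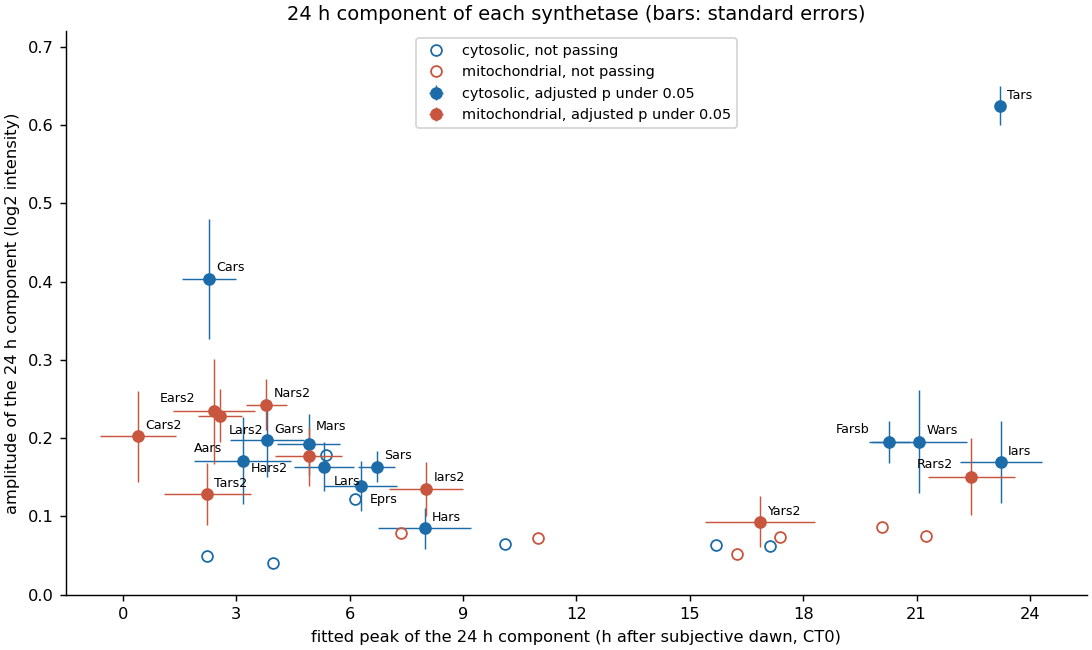
Amplitude of the 24 h component on the log2 scale against its fitted peak time, for cytosolic (blue) and mitochondrial (red) synthetases, with standard errors for the 21 that passed an adjusted p of 0.05 in limma (filled, named) and open points for the others. Tars, at 0.62 and CT23.2, stands above all others, and 11 of the 21 peaks lie between CT0 and CT6.

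The level of each transcript was then compared between the cycles by the 24 differences of pools taken 24 h apart, tested in limma. In the second cycle 14 of 34 synthetases were lower, 12 of 19 cytosolic (Aars, Farsa, Gars, Hars, Kars, Lars, Mars, Nars, Sars, Vars, Wars and Yars) and 2 of 15 mitochondrial (Cars2 and Tars2), where 16.2% of all genes and 26.1% of those with a mean of at least 100 were lower. The cytosolic share was thus well above the background and the mitochondrial share below it, which is a description, since the list was not tested. The median difference was -0.18 in cytosolic and -0.04 in mitochondrial synthetases, beside -0.02 in genes with a mean of at least 100. Synthetases that were higher numbered 5 (Farsb, Qars, Fars2, Sars2 and Yars2), against 38.0% of all genes and 17.7% of the brighter ones. After quantile normalization, 5 were lower (Aars, Mars, Sars, Vars and Yars, all cytosolic) and 8 higher, where 8.21% of all genes and 12.4% of the brighter ones were lower and 13.4% and 17.4% higher. The cytosolic share lower was then 26.3%, against 63.2% before. The median difference was then -0.10 in cytosolic and 0.05 in mitochondrial synthetases, so that the mitochondrial median changed sign, beside 0.02 in genes with a mean of at least 100. The 24 h component itself differed between cycles in 5 synthetases (Farsa, Iars, Kars, Lars and Iars2), against 6.29% of all genes and 9.99% of the brighter ones, and in 0 of 34 without CT60 to CT65, where 0.011% of all genes passed and 4 of 34 synthetases had an unadjusted p under 0.05.

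Most of this difference lay in the last 6 pools. Compared with CT36 to CT41, the same hours a day earlier, the median difference at CT60 to CT65 was -0.55 for 19 cytosolic and -0.10 for 15 mitochondrial synthetases, beside -0.04 for genes with a mean of at least 100. Of the cytosolic transcripts, 15 of 19 were lower, and of the mitochondrial ones 9 of 15. In some genes the difference depended on the probe set. Another bright probe set of Hars2 gave -0.94, against -0.10 through the used one, and another of Eprs gave 0.31, against 0.03. In Aars and Sars the second probe set was like the used one, at -0.90 against -0.80 and -0.44 against -0.36. The median deviation of cytosolic synthetases from their own means was lowest at CT61, -0.68, with 15 of 19 below, and highest at CT26, 0.33, with 17 of 19 above. Without the last 6 pools and their partners, 5 were lower (Hars, Kars, Lars, Mars and Sars, against 8.51% of all genes) and 3 higher (Farsb, Qars and Fars2, against 28.0%).

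Aars, the alanine enzyme, was at 15772 at CT60 and then 6599.8, 9334.6, 9882.1, 10707 and 10406 from CT61 to CT65, against 14069 to 20834 at CT36 to CT41. From CT61 on, its pools were all below those of the day before. With the test limited to these 6 pairs, a comparison chosen after seeing the data, Aars fell by 0.80 ± 0.11 on the log2 scale (adjusted p = 0.00953), and over the other 18 pairs the difference was -0.09 ± 0.06 (adjusted p = 0.275). A second bright probe set of Aars had an r of 0.97 with it. Gars, the glycine enzyme, was at 3465.0 at CT60 and then at 1513.7, 2086.3, 2386.5, 2096.6 and 2237.4, against 3362.9 to 3927.2, and fell by 0.71 ± 0.13 (adjusted p = 0.0140). Gars followed the same course as Aars, with a near normal value at CT60 and the lowest at CT61.

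Kars, the lysine enzyme, lay between 2843.6 and 3997.7 at CT60 to CT65 and between 4942.7 and 5483.2 at CT36 to CT41, and fell by 0.55 ± 0.08 (adjusted p = 0.0113). Iars, for isoleucine, lay between 3715.5 and 7331.9 against 8311.3 and 10373 and fell by 0.73 ± 0.12 (adjusted p = 0.0119). Wars, for tryptophan, and Farsa fell by 0.73 ± 0.08 and 0.86 ± 0.16. In Iars the other 18 pairs gave a difference of 0.03 ± 0.04, so that the fall was seen in the last span and not before.

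In all, 13 of 34 were lower over the 6 pairs, the 11 cytosolic ones being Aars, Farsa, Gars, Iars, Kars, Lars, Mars, Nars, Sars, Wars and Yars and the 2 mitochondrial ones Iars2 and Tars2, where 16.3% of all genes and 26.4% of the brighter ones were lower. Cars (-0.72 ± 0.28, adjusted p = 0.0732) and Vars, for valine (-0.69 ± 0.29, adjusted p = 0.0884), had differences of similar size that did not pass. Farsb, Qars, Rars, Wars2 and Yars2 were higher, against 33.2% of all genes and 1901 of the 11186 brighter ones. Rars rose by 0.31 ± 0.09 (adjusted p = 0.0396), while 4 of the 7 measured subunits of its complex fell.
Among the 7 subunits of the multisynthetase complex that were measured (Eprs, Iars, Kars, Lars, Mars, Qars and Rars), the median difference was -0.29, and among the 12 other cytosolic synthetases it was -0.70. Of the cytosolic promoters with TGATGNAA, those of Aars, Gars and Iars belonged to transcripts that fell, as did that of Yars (-0.79 ± 0.16, adjusted p = 0.0166). Tars differed by -0.05 ± 0.06 (adjusted p = 0.468). In Iars and Yars the match lay past the start site, and the Iars window shown above does not hold it. Among the 7 matched cytosolic promoters without TGATGNAA, 4 also belonged to transcripts that fell (Farsa, Kars, Mars and Sars), and whether the shares differ was not tested. In the same pools the array medians were 104.0 to 110.9, against at most 105.0 in earlier ones, acinar markers were at 243.1 to 252.9 in sum, and hepatocyte markers were at 2867700 to 3023800 in sum, with 0 of 4 hepatocyte markers passing the 6-pair test. Of 6 sinusoidal endothelial markers, 4 were lower (Stab2 -1.01, Cdh5 -0.84, Pecam1 -0.36 and Kdr -0.68), where 16.3% of all genes were, and Clec4g was higher (0.31). Their sum was 26640 to 29555, against 19786 to 31552 in the first cycle. It was mostly made up of Clec4g, with a mean of 18592, and so says little about the markers that fell. Of 8 Kupffer cell markers, Csf1r was lower (-0.90) and Vsig4 higher (0.32), and of 7 stellate cell markers, Reln was lower (-0.84) and Lrat higher (0.52). The median correlation with the other arrays was 0.984 to 0.990. The part of these measures in the fall was not tested.

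**Figure D4:**
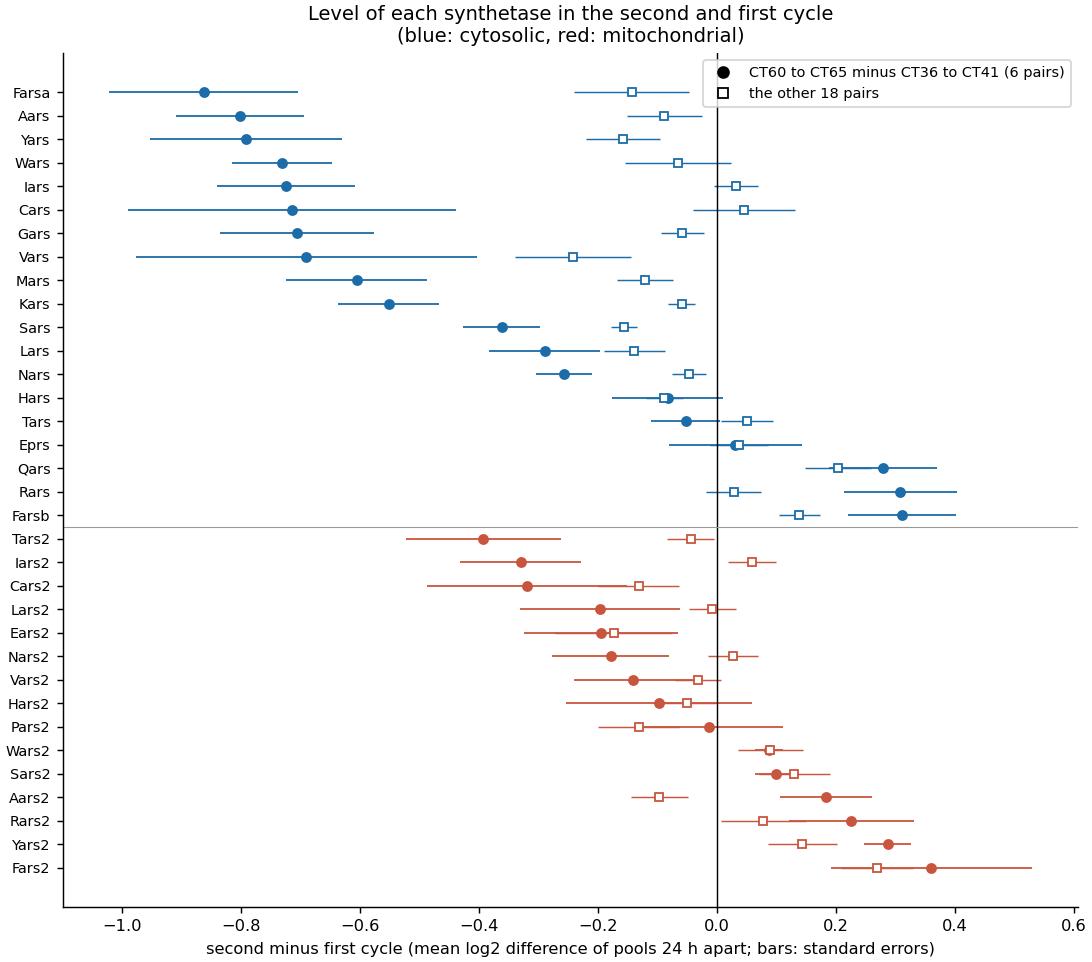
Mean log2 difference of pools 24 h apart (second minus first cycle, with standard errors) for each cytosolic (blue) and mitochondrial (red) synthetase, with filled circles for CT60 to CT65 minus CT36 to CT41 (6 pairs) and open squares for the other 18 pairs. Filled circles of most cytosolic synthetases lie between -0.26 and -0.86, while the open squares lie closer to 0.

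Of the 5 synthetases with higher levels in the second cycle, Farsb, Qars, Fars2 and Yars2 were the 4 members read through probe sets of the cross-hybridising _x_at type. Other probe sets of these genes differed from them. For Qars, the glutamine enzyme, the used probe set gave 0.22 ± 0.05 (adjusted p = 6.41e-04), while a pair of bright ones gave -0.17 (adjusted p = 0.0109) and -0.01 and correlated with it at -0.53 and -0.09, and a dim one gave 0.14 (adjusted p = 0.0116). The bright one at -0.01, also of the _x_at type, was in the 24 h class with a peak at CT6.02 (adjusted p = 9.94e-04 in limma). The one at -0.17 had a 24 h component in limma (adjusted p = 0.00546), and the used one had none (adjusted p = 0.245). Farsb gave 0.18 through the used probe set and 0.02 and -0.06 through others, and Fars2, the mitochondrial phenylalanine enzyme, 0.29 and -0.05. For Yars2, the mitochondrial tyrosine enzyme, these values were 0.18 and 0.10. Over all 1696 _x_at probe sets with a mean of at least 100 the median was 0.02. Across the family, 25 further probe sets with a mean of at least 100 came from 19 members, and 12 of these had the same 24 h limma call as the used probe set and 13 another.

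Correlations were higher among cytosolic than among mitochondrial synthetases. Over the 48 detrended pools the median r was 0.29 for 171 pairs of cytosolic transcripts, 0.03 for 105 pairs of mitochondrial ones and 0.05 for 285 mixed pairs. The closest were Mars and Gars (0.90), Gars and Aars (0.89) and Mars and Aars (0.88), where Mars is the methionine enzyme, and the most opposed were Iars2 and Farsb (-0.64). Without CT60 to CT65 the closest 3 pairs were at 0.70, 0.68 and 0.67 and the cytosolic median at 0.28. All pairs share the same arrays, so these values describe profiles and carry no test.

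Partners of the synthetases were examined from lists of known genes. Of the 3 scaffold proteins of the multisynthetase complex, Eef1e1 was in the 24 h class, with a range from 2359.1 at CT27 over 4219.9 to 9080.1 at CT61. Its amplitude was 0.34 ± 0.05 with a peak at CT15.5 (adjusted p = 3.88e-07), an hour at which no cytosolic synthetase with a called component peaked. Aimp1 was in the 8 h class, at 8.3 h, and Aimp2 in none. At CT60 to CT65 Eef1e1 and Aimp1 were higher by 0.39 and 0.23, and Aimp2 was lower by a log2 difference of -0.42. Of 12 accessory and editing factors measured, 0 were called by both tests and 6 had a 24 h component in limma, and of 3 subunits of elongation factor 1, which receives the charged tRNA, 0 and 1. Among all genes, 14.2% were in the 24 h class and 53.3% had a 24 h component in limma, so 6 of 12 was close to that background. Over the last 6 pools 4 of the 12 accessory factors were lower and 3 higher, where 16.3% of all genes were lower and 33.2% higher.

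Of 26 measured genes of the ATF4 and amino acid response, 8 were in the 24 h class, 1 in the 12 h class (Ddit3) and 15 had a 24 h component in limma, beside 14.2% and 53.3% of all genes in the 24 h class and in limma. The limma share was close to that background. Among them Trib3, a pseudokinase induced by amino acid shortage, had an amplitude of 1.503 with a peak at CT6.60 (adjusted p = 3.69e-16), and Atf5, a transcription factor of the same response, 0.88 with a peak at CT2.97 (adjusted p = 1.58e-12). Psph, the last enzyme of serine synthesis, peaked at CT20.7 with an amplitude of 0.39 (adjusted p = 6.96e-11). Ddit4, an inhibitor of the growth kinase mTORC1, peaked at CT18.2 with 0.62 (adjusted p = 7.10e-08), and Atf4 itself varied little, by 0.11 with a peak at CT21.4 (adjusted p = 0.00686). At CT60 to CT65, 4 of the 26 were lower than the day before (Slc3a2 by a log2 difference of -1.42, Shmt2 -1.12, Atf5 -0.81 and Cebpb -0.76). Of all genes 16.3% were lower, and of the brighter ones 26.4%, so the share in this list was no larger. Those that were higher numbered 2 (Slc7a11 0.15 and Slc7a5 0.05), against 33.2% of all genes, and Atf4 differed by 0.01 (adjusted p = 0.862). Of 6 eIF2 kinases and regulators, Eif2ak3, the kinase that senses stress in the endoplasmic reticulum, was in the 8 h class and 2 had a 24 h component in limma. Over the last 6 pools 3 of these 6 were lower (Gcn1 -1.65, Eif2ak1 -0.55 and Eif2ak3 -0.44) and 0 higher.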

How the data were processed

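Per the labels and methods, total RNA of liver pools was labelled with biotin and hybridised to Affymetrix arrays. The authors extracted intensity values with GCRMA, which corrects background, normalizes arrays and summarises probe sets; the labels also name MAS5, without a version. The deposited intensity values are linear, for 45101 probe sets, of which 34958 had 1 gene symbol, 932 several and 9211 none. All 48 arrays were used, and the number of arrays limits precision.

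Values were taken to log2. The G-test was exact over 23 Fourier frequencies. The cosine fit searched 4 to 30 h in steps of 0.1 h after linear detrending, with p from 1000 scramblings. Storey q-values were computed over all probe sets. Classes were 20 to 30, 10 to 14 and 7 to 9 h. Components and differences between cycles were tested in limma with Benjamini-Hochberg adjustment over all probe sets.

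Of the listed cytosolic genes, 1 is not reported here. Members, lists and tests were chosen with earlier results of these data known. Full values are given for members called by both tests or with a fitted ratio over 1.5, for up to 4 called genes of each list, by G-test p, and for the 5 genes most like Tars. Members singled out in the last 6 pools and by probe set type, and the list genes given there, were chosen after their values were seen. Tested on simulated 1.5-fold rhythms added to 1000 of 45101 probe sets per class, both tests recovered 90.2% at 24 h, 91.7% at 12 h and 90.8% at 8 h. The rhythms were added only to probe sets with a mean of at least 100. Simulated noise was independent between pools and smaller than the detrended spread of each probe set. These shares therefore do not give the recovery in the real pools, where it can be lower. Alternatives were linear intensities, quantile normalization, brighter probe sets, probe set means, other trends, nulls and q limits, and pools left out. Python 3.11.15 (numpy 2.4.6, scipy 1.17.1) and R 4.3.3 with limma 3.58.1 were used.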

Additional observations from a re-analysis of the deposited data

Results flagged for a closer look

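In 5 synthetases the 24 h component differed between the cycles by an interaction test in limma, where 6.29% of all genes and 9.99% of those with a mean of at least 100 did. Kars (adjusted p = 0.0135) went from an amplitude of 0.06 with a peak at CT16.8 to 0.19 at CT2.20, and Iars (adjusted p = 0.0187) from 0.16 at CT19.8 to 0.26 at CT1.13. Farsa (adjusted p = 0.0237) kept its amplitude, 0.23 in each cycle, while the fitted peak went from CT15.0 to CT6.04. Iars2 (adjusted p = 0.0287) went from 0.12 at CT11.4 to 0.21 at CT4.90, and Lars (adjusted p = 0.0326) from 0.13 at CT1.46 to 0.27 at CT4.79. Without CT60 to CT65, 0 of the 5 passed in limma, 4 of 34 synthetases had an unadjusted p under 0.05, and of the 5 only Iars had a called 24 h component in the first cycle alone.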

How the results depend on the processing

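The count of 8 synthetases in the 24 h class was 4 at q under 0.01 (Cars, Tars, Lars2 and Nars2) and between 7 and 11 under the other settings. The cytosolic count of 5 was 8 among probe sets with a mean of at least 100 and 8 with probe sets averaged per gene, with Eprs, Gars and Mars added in both. The 12 h class, 1 in the report, held 2 after detrending before the G-test, 2 after quantile normalization, and 3 in the brighter probe sets, with probe set means and at q under 0.1, each time Hars, Rars and Rars2. In limma the 21 synthetases with a 24 h component were 3 in the first cycle alone (3 cytosolic and 0 mitochondrial, with 3 of 15 mitochondrial ones at an unadjusted p under 0.05), and the 9 mitochondrial ones were 5 without CT60 to CT65 and 5 when neighbouring pools were averaged. The 6 with a 12 h component were 1 in the first cycle alone, 0 in the second (11 at an unadjusted p under 0.05) and 1 with neighbouring pools averaged. Leaving out any 1 pool gave 19 to 22 with a 24 h component, 4 to 6 with a 12 h component and 0 with an 8 h component. The 5 differences in rhythm between cycles were 8 in the brighter probe sets and 0 without CT60 to CT65. Lower levels in the second cycle, 14 in the report, were 5 after quantile normalization and 5 without CT60 to CT65, and higher levels, 5 in the report, were 8 and 3. Quantile normalization moved the median difference of all genes from 0.03 to 0.01 and that of cytosolic synthetases from -0.18 to -0.10. The cause of these changes was not tested. Without CT25 and CT46, the pools with acinar transcripts, and chosen after seeing the data, 11 were lower and 5 higher, and 20 had a 24 h component. The difference of median 24 h amplitude between the compartments was 0.04 over all pools. It was smaller in the first cycle fitted alone and larger in the second. No called difference between the cycles changed direction under the settings of scale, brightness and left-out pools, but Qars, higher through the used probe set, was lower through another. Each hour was sampled once, so no replicate numbers pair the pools, and the levels were paired by hour of day. Signal near background limits Pars2, Vars, Ears2, Wars2 and Wars.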
